A study of Mus musculus with 18 samples.

Results

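The genes described here encode the subunits of the proteasome in mouse macrophages. They are the rows of the expression table whose symbol begins with Psma, Psmb, Psmc, Psmd or Psme and a digit, with at least 1 RPKM (reads per kilobase of transcript, scaled to the depth of the library) in at least 3 of 18 libraries. Of 18668 rows, 45 had such a symbol and 44 reached that level. Psmb11, the subunit of the thymus proteasome, was the 1 row that did not. Among the 44 members, 5 are immunoproteasome genes (Psmb8, Psmb9, Psmb10, Psme1 and Psme2), and the other 39 were set beside them. In 43 members every library held at least 1 RPKM, whereas Psma8, a subunit of the testis, reached it in 11 libraries. Psmc3ip and Psme2b carry the name without being established subunits of the particle. Psmc3ip encodes a protein of meiotic recombination, and Psme2b is a close copy of Psme2.

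The proteasome degrades proteins tagged with ubiquitin. Its core is a stack of alpha and beta rings in which the beta subunits Psmb5, Psmb6 and Psmb7 cut peptide bonds, and a regulatory particle of ATPases (Psmc) and other subunits (Psmd) recognises, unfolds and feeds the substrate. Interferon gamma, acting in part through IRF1, induces Psmb8, Psmb9 and Psmb10, which replace Psmb5, Psmb6 and Psmb7 in new particles, together with Psme1 and Psme2, the chains of the PA28 activator. Particles of this kind are known for making peptides that are loaded on MHC class I molecules, and macrophages hold them beside constitutive particles.

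RNA was sequenced from bone marrow-derived macrophages (BMDM), which are grown from marrow with M-CSF, of mice on the C57BL6 background. All groups lacked Apoe, so no wild-type cells stand in the comparison. One genotype was Apoe-/- and the other was Apoe-/-/Treml4-/- (DKO), which also lacks the macrophage receptor Treml4. Cells of each genotype received the vehicle PBS (untreated) or oxidized LDL (oxLDL), the altered lipoprotein that turns macrophages into foam cells in the artery wall. The amount was 10 µg/ml (oxLDL 10) or 60 µg/ml (oxLDL 60). The series design gives 16 hours of treatment and the study's text a longer time. There were 3 biological replicates in each of 6 groups, and the age of the mice is not given in the sources used here.

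Treml4 stood at 1.86 to 8.39 RPKM in the Apoe-/- libraries and at 0 to 0.012 RPKM in the DKO libraries. Residual Apoe transcripts lay between 0.349 and 4.13 RPKM. The macrophage genes Adgre1, Cd68 and Csf1r ranged over 339 to 594, 434 to 671 and 409 to 630 RPKM. Of 20 markers of other cell types, 12 stayed under 0.25 RPKM in every library, Ly6g and Cd3e among them. The other 8 were the neutrophil and precursor genes S100a8 (9.22 to 28.4 RPKM), S100a9 (12.6 to 39.9), Mpo and Elane (0.578 to 1.55), Cd4 (0.30 to 0.725), and the fibroblast genes Col1a1, Col1a2 and Dcn (up to 7.48). The neutrophil list summed to 25.1 to 39.4 RPKM in untreated and 25.7 to 37.3 RPKM in oxLDL 60 libraries of Apoe-/-, and to 30.8 to 70.7 and 28.4 to 50.0 RPKM in DKO. The summed level of 7 macrophage markers, most of it Lyz2, was lower with oxLDL 60 (6423 to 8353 RPKM in Apoe-/- and 5458 to 7042 RPKM in DKO) than in untreated cells (8614 to 11352 and 8058 to 10530 RPKM), and the part of either sum in the results below was not tested. Xist was above 1 RPKM in 6 libraries, which were replicate 2 of Apoe-/- and replicate 3 of DKO at every treatment. The summed level of the 44 members was lowest in untreated Apoe-/- replicate 1 (2919 RPKM), and this library also had the lowest median-ratio scaling factor of all (0.894), and its part in comparisons with untreated Apoe-/- cells is given below by leaving it out. Depth was estimated as 39.7 M to 54.2 M reads per library. At that depth each value of a member other than Psma8 rested on about 350.2 reads or more.

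Promoter stretches of a few members are given so that genes whose transcripts moved together or apart can be compared in their upstream letters. They were taken from RefSeq windows that run from 250 bases before to 50 bases after each gene start (GRCm38.p6, the same assembly as the mm10 of the submitters' notes), and 37 of the 44 members had a window. Stretches that overlap no annotated exon are shown for Psme2 and Psmb10, the immunoproteasome genes whose transcripts fell most, for Psmd10, which fell with them, and for Psmb5 as the constitutive catalytic subunit. Capitals mark matches to the patterns TGACNNNGC and CCAAT, the latter read on the opposite strand in Psmd10.
Psme2, chr14:55591114-55591351, minus strand: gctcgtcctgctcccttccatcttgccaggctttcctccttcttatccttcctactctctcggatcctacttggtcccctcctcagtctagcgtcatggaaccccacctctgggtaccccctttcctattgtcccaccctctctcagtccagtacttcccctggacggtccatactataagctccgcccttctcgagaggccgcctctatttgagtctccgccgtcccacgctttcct
Psmb10, chr8:105938445-105938642, minus strand: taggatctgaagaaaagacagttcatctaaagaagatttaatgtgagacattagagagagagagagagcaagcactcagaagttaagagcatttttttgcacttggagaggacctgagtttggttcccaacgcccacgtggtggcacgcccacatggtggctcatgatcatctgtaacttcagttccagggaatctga
Psmd10, chrX:140956729-140956906, minus strand: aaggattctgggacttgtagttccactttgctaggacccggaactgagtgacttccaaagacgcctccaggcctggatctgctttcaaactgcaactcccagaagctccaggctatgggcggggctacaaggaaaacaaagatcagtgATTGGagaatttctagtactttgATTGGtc
Psmb5, chr14:54618023-54618245, minus strand: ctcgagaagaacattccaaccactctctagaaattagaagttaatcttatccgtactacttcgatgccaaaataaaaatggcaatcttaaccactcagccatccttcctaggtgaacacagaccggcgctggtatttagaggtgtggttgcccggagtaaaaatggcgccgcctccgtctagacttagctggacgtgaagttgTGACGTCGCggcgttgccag

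Each window was searched on both strands for 3 patterns. These were GAAA and GAAA with a pair of any bases between them (the core of elements bound by IRF factors), TGACNNNGC (the core of antioxidant elements) and CCAAT. The first occurred in 3.44% of all 32851 windows and in those of 4 members, Psme1, Psmb3, Psmd4 and Psmd9. TGACNNNGC occurred in 12.4% of windows and in those of 6 members, including Psmb5 and Psmb6, and CCAAT in 37.4% and in those of 14 members. No match of one pattern overlapped a match of another. The match in Psme1 lay just after the gene start and is shown in capitals within 30 bases.
Psme1, chr14:55578493-55578522, plus strand: cgagctgtgcTTTCGCTTTCccttcccgct

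To see how oxLDL bears on the immunoproteasome, its genes were examined first. All 5 were lower with oxLDL 60 than in untreated cells, in both genotypes, at an adjusted p under 0.05. Psme2 and Psmb10 fell most, to 0.613 and 0.618 times the untreated level in Apoe-/- and to 0.562 and 0.584 times in DKO, while Psme1 fell least. Values are from limma on log2(RPKM + 0.1) with Benjamini-Hochberg adjustment over 12838 genes, and the term called is kept for an adjusted p under 0.05 together with a change of 1.4-fold or more.

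Psmb10, which replaces the trypsin-like subunit Psmb7, read 48.9, 67.9 and 67.6 RPKM in untreated Apoe-/- replicates 1 to 3, 50.4, 55.6 and 47.7 RPKM with oxLDL 10 and 37.6, 38.0 and 37.0 RPKM with oxLDL 60. In DKO it read 56.9, 57.4 and 66.1 RPKM when untreated, 49.3, 45.5 and 53.1 RPKM with oxLDL 10 and 32.9, 34.0 and 38.2 RPKM with oxLDL 60. All 6 libraries with oxLDL 60 lay below all 6 untreated libraries. The log2 change was -0.69 ± 0.11 (SE, adjusted p = 9.63e-05) in Apoe-/- and -0.78 ± 0.11 (adjusted p = 3.45e-05) in DKO.

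Psmb9, the replacement of Psmb6, had the lowest RPKM of the inducible subunits. It read 24.8, 37.5 and 36.5 RPKM in untreated Apoe-/- replicates, 27.8, 35.6 and 27.0 RPKM with oxLDL 10 and 20.3, 22.6 and 20.9 RPKM with oxLDL 60. In DKO the 3 untreated libraries read 31.5, 32.6 and 37.2 RPKM, those with oxLDL 10 read 27.0, 29.2 and 30.9 RPKM, and those with oxLDL 60 read 20.4, 19.0 and 22.8 RPKM. Untreated Apoe-/- replicate 1 was well under the other untreated libraries and still above every library with oxLDL 60. The log2 change was -0.60 ± 0.14 (adjusted p = 0.00247) in Apoe-/- and -0.70 ± 0.14 (adjusted p = 0.000845) in DKO. The annotated starts of Psmb9 and of Tap1, a peptide transporter gene, overlap on opposite strands of chromosome 17. The study's methods name a stranded library kit, but whether the counting used strand is not given in the sources used here.

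Psmb8, the replacement of Psmb5 and the inducible subunit with the highest RPKM, fell less. It read 97.0, 118 and 118 RPKM in untreated Apoe-/- cells, 108, 114 and 105 RPKM with oxLDL 10 and 88.9, 93.4 and 83.7 RPKM with oxLDL 60. The DKO libraries held 114, 119.7 and 131 RPKM when untreated, 113, 109 and 119.5 RPKM with oxLDL 10 and 81.8, 85.3 and 91.4 RPKM with oxLDL 60. Untreated and oxLDL 60 libraries did not overlap in either genotype. The log2 change was -0.32 ± 0.079 (adjusted p = 0.00468) in Apoe-/-, short of the limit of 1.4-fold, and -0.50 ± 0.079 (adjusted p = 0.000135) in DKO, just past it. The DKO value missed that limit without untreated replicate 3 (-0.44) or oxLDL 60 replicate 1 (-0.46), without the Xist-positive libraries (-0.48) and after rescaling by the median ratio (-0.43), with an adjusted p of at most 0.0013 in each.

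The chains of PA28, which opens the gate of the core, differed in the size of their fall. Psme2 read 109, 144 and 148 RPKM in untreated Apoe-/- cells, 107, 122 and 104 RPKM with oxLDL 10 and 81.4, 83.4 and 78.8 RPKM with oxLDL 60. DKO cells gave 131, 131 and 155 RPKM when untreated, 108, 103 and 118 RPKM with oxLDL 10 and 74.6, 79.2 and 79.7 RPKM with oxLDL 60. The log2 change was -0.71 ± 0.10 (adjusted p = 4.56e-05) in Apoe-/- and -0.83 ± 0.10 (adjusted p = 8.68e-06) in DKO, with no overlap between untreated and oxLDL 60 libraries. Psme1 read 99.5, 116 and 123 RPKM in untreated Apoe-/- cells and 99.8, 100.2 and 97.8 RPKM with oxLDL 60, and these groups overlapped. Its log2 change there was -0.18 ± 0.064 (adjusted p = 0.040), which no longer passed when untreated replicate 2 or 3 or any of the oxLDL 60 replicates was left out (adjusted p = 0.0778 to 0.171), without the Xist-positive libraries (0.22) or in a fit of these groups alone (0.179). In DKO Psme1 read 117, 120.5 and 121 RPKM when untreated and 92.8, 90.1 and 93.7 RPKM with oxLDL 60, without overlap (-0.37 ± 0.064, adjusted p = 0.000298). Psme1 and Psme2 lie near each other on chromosome 14, in opposite directions (55578123 to 55581529 and 55587441 to 55591113, GRCm38).

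**Figure D1:**
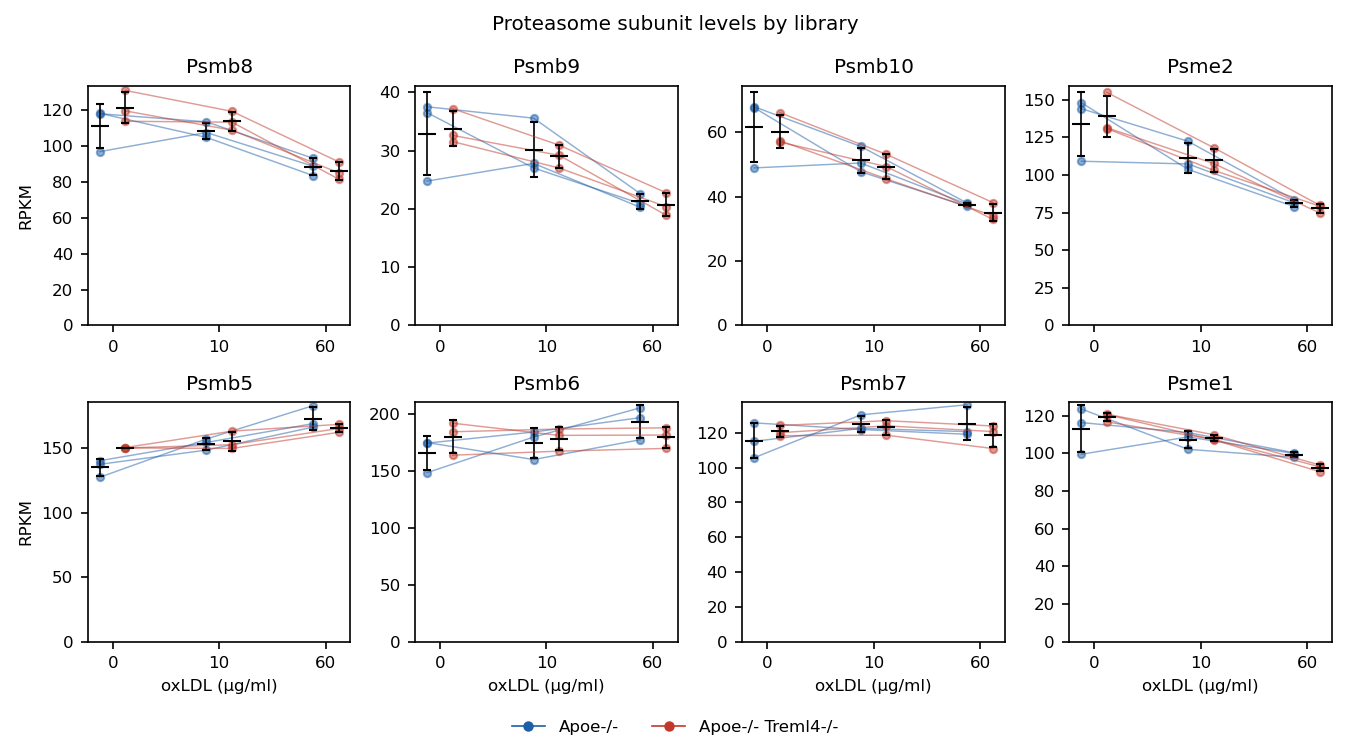
Level in RPKM (y axis, from 0) of 8 subunits in every library, by amount of oxLDL in µg/ml (x axis), with lines joining libraries of the same genotype and replicate number and black bars for mean ± SD (n = 3). The inducible subunits and PA28 chains are lower with oxLDL 60 on each of the 6 lines, apart from Psme1 in Apoe-/- replicate 1 (99.5 and 99.8 RPKM), whereas Psmb5, Psmb6 and Psmb7 show no such step.

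Psme2b gave lower values with oxLDL 60 as well, but cannot be told apart from Psme2 with certainty. Its annotated transcript matched that of Psme2 in 789 of 794 aligned bases (99.4%), so that reads can be split between the copies. It read 17.4, 22.7 and 22.8 RPKM in untreated Apoe-/- cells and 11.2, 13.7 and 11.8 RPKM with oxLDL 60 (log2 change -0.76 ± 0.099, adjusted p = 1.51e-05). In DKO its level with oxLDL 60 was 0.501 times the untreated one (adjusted p = 7.88e-07).

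The RPKM of each inducible subunit was set against that of its constitutive partner within each library. The size of such a ratio depends on the gene lengths used for RPKM, which are not given in the sources used here. Its change with oxLDL does not. In untreated Apoe-/- cells the ratio of RPKM was 0.821 ± 0.053 (SD, n = 3) for Psmb8 to Psmb5, 0.197 ± 0.026 for Psmb9 to Psmb6 and 0.53 ± 0.064 for Psmb10 to Psmb7. With oxLDL 60 these were 0.513 ± 0.034, 0.111 ± 0.010 and 0.301 ± 0.021. The RPKM of every inducible subunit was thus below that of its partner in mean at either condition, and the ratio was lower with oxLDL 60. With the lengths unknown, this order of RPKM does not rank the transcripts by number. In DKO the ratios were 0.809 ± 0.059, 0.19 ± 0.033 and 0.498 ± 0.053 when untreated and 0.521 ± 0.039, 0.116 ± 0.016 and 0.297 ± 0.040 with oxLDL 60.

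A ratio of this kind is untouched by the scaling of a library, apart from the pseudocount. Over both genotypes (6 against 6 libraries), oxLDL 60 changed the log2 ratio by -0.66 for Psmb8 to Psmb5, -0.76 for Psmb9 to Psmb6 and -0.78 for Psmb10 to Psmb7. Each had p = 0.005 in a two-sided exact permutation test within genotype, the smallest that its 400 arrangements can give, and an adjusted p of 0.0075 over the 6 ratio comparisons. With oxLDL 10 the changes were -0.17 (exact permutation p = 0.02, adjusted 0.024), -0.20 (p = 0.1, adjusted 0.1) and -0.34 (p = 0.005, adjusted 0.0075). Pairing the libraries by replicate number, taken to mark an animal, brought Psmb9 to Psmb6 under the threshold as well (adjusted p = 0.031, exact sign-flip permutation over 6 pairs). This is the smallest p that 6 pairs can give, and it is reached whenever all of them change in the same direction. Leaving out untreated Apoe-/- replicate 1 brought it under the threshold too (change -0.25, adjusted p = 0.04, exact permutation within genotype).

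**Figure D2:**
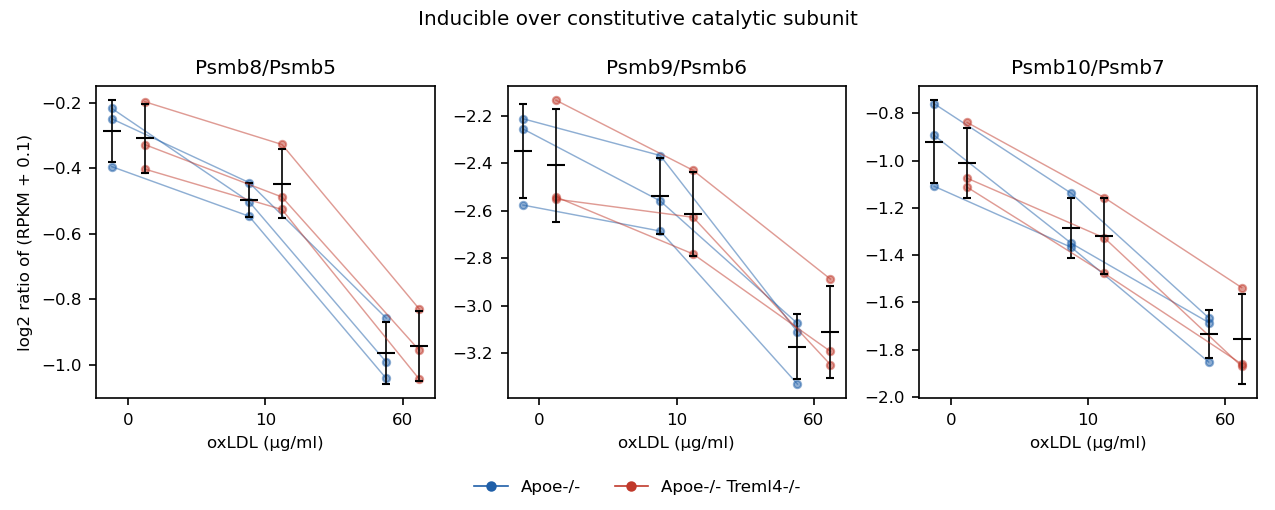
Log2 ratio of RPKM + 0.1 of each inducible subunit to its constitutive partner (y axes, not from 0) by amount of oxLDL in µg/ml (x axis). Points are libraries joined by genotype and replicate number, and black bars are mean ± SD (n = 3); every line ends at oxLDL 60 below where it began.

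The constitutive catalytic subunits did not share the fall. Psmb5, the chymotrypsin-like subunit, read 128, 140 and 138 RPKM in untreated Apoe-/- cells, 157, 155 and 149 RPKM with oxLDL 10 and 183, 169 and 166 RPKM with oxLDL 60. It rose with oxLDL 60 by 0.35 ± 0.054 on the log2 scale (adjusted p = 8.69e-05), with no overlap. In DKO the values were 151, 150.3 and 150.3 RPKM when untreated and 169, 165 and 162 RPKM with oxLDL 60, which did not overlap either but missed the threshold (0.14 ± 0.054, adjusted p = 0.074). The DKO value passed after rescaling by the median ratio (0.20, adjusted p = 0.00286) and in a fit of these groups alone (adjusted p = 0.0498).

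Psmb6, the caspase-like subunit, had the highest RPKM of the catalytic genes. It read 148, 174 and 175 RPKM in untreated Apoe-/- cells and 205, 196 and 177 RPKM with oxLDL 60 (0.22 ± 0.084, adjusted p = 0.058), without overlap. This missed the threshold, but passed with the replicate number as a block (adjusted p = 0.0214), with a term for Xist (0.0456), and without oxLDL 60 replicate 3 (0.0322) or untreated replicate 3 (0.0467). DKO libraries read 184, 192 and 164 RPKM when untreated and 188, 181 and 169 RPKM with oxLDL 60 (0.00 ± 0.084, adjusted p = 0.998). Psmb7 read 106, 115 and 126 RPKM against 136, 121 and 119 RPKM in Apoe-/- (0.12 ± 0.069, adjusted p = 0.214) and 120.0, 124 and 118 RPKM against 121, 124 and 111 RPKM in DKO (-0.03 ± 0.069, adjusted p = 0.808). For both of these genes untreated and oxLDL 60 libraries overlapped in DKO.

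Over all 44 members, oxLDL 60 in Apoe-/- gave 5 called lower (Psmb10, Psmb9, Psme2, Psme2b and Psmd10) and 1 called higher (Psmd5). Among all genes tested, 6.78% were called lower and 7.13% higher in that comparison. In DKO, 6 members were called lower (the same 5 and Psmb8) and 0 higher, against 7.31% and 4.87% of all genes. So 5 of 5 members called lower in Apoe-/- and 5 of 6 in DKO were shared. The matching share over all genes was not counted, so this sharing is not shown to be particular to the members. Without the limit on fold, 7 members passed lower and 16 higher in Apoe-/- (11.7% and 18.5% of all genes), and 8 lower and 3 higher in DKO (16.8% and 9.06%). The median log2 change of the members was 0.15 in Apoe-/- and -0.03 in DKO, beside 0.06 and -0.06 over all genes tested.

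The summed level of the 5 immunoproteasome genes was 452 ± 63.5 RPKM (SD, n = 3) in untreated Apoe-/- cells, 408 ± 26.9 RPKM with oxLDL 10 and 328 ± 9.68 RPKM with oxLDL 60. In DKO it was 474 ± 31.7, 410.1 ± 19.4 and 312 ± 12.2 RPKM. As a share of the summed RPKM of all 44 members, this was 14.0% ± 0.886 when untreated, 12.1% ± 0.843 with oxLDL 10 and 9.52% ± 0.429 with oxLDL 60 in Apoe-/-. In DKO the shares were 13.8% ± 0.998, 12.0% ± 0.871 and 9.61% ± 0.695, so that untreated and oxLDL 60 libraries did not overlap in either genotype.

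The structural subunits moved little, and where they passed the test they mostly rose in Apoe-/-, in which 18.5% of all genes passed higher (9.06% in DKO). Of the 7 alpha ring genes, which form the gate of the core, 2 rose in Apoe-/-, Psma5 by 0.38 ± 0.064 (adjusted p = 0.0002) and Psma7 by 0.19 ± 0.056 (adjusted p = 0.0136). In DKO Psma6 fell by 0.24 ± 0.059 (adjusted p = 0.0056), which did not pass without the Xist-positive libraries (adjusted p = 0.139). Of the 4 other beta subunits, 1 rose in Apoe-/-, Psmb3 (0.22 ± 0.062, adjusted p = 0.013), and 0 passed in DKO. Psma7 and Psmb3 no longer passed without untreated replicate 1 (adjusted p = 0.0569 and 0.0576) or oxLDL 60 replicate 1 (0.0587 and 0.0774) or in a fit of these groups alone (0.093 and 0.0986), nor Psma7 after rescaling (0.0997) or without the Xist-positive libraries (0.0517). The changes of the alpha ring spanned -0.02 to 0.38 in Apoe-/- and -0.24 to 0.18 in DKO.

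Among the 6 ATPases, which unfold the substrate, 4 rose in Apoe-/- with oxLDL 60 (Psmc1, Psmc2, Psmc5 and Psmc6) and 0 passed in DKO. Except for Psmc1 these passes were lost in 5 to 8 alternatives each, among them leaving out untreated replicate 1 (adjusted p = 0.0742, 0.185 and 0.0995) or oxLDL 60 replicate 1 (0.079, 0.145 and 0.163). Psmc1 changed most, from 71.8, 79.5 and 85.2 RPKM to 111, 100.1 and 102 RPKM (0.40 ± 0.071, adjusted p = 0.000335). Its DKO libraries did not overlap either, at 82.0 to 87.0 RPKM when untreated and 91.1 to 99.1 RPKM with oxLDL 60, but the change of 0.18 missed the threshold (adjusted p = 0.0755). Of the 11 non-ATPase subunits, 6 rose in Apoe-/- (Psmd1, Psmd4, Psmd7, Psmd11, Psmd13 and Psmd14) and 2 in DKO (Psmd1 and Psmd11). Of all genes, 18.5% passed higher in Apoe-/- and 9.06% in DKO. In Apoe-/- Psmd4 and Psmd7 were lost without oxLDL 60 replicate 1. Psmd7 was also lost without untreated replicate 1 or 2 or without the Xist-positive libraries (adjusted p = 0.0524). In a fit of these groups alone, Psmd4 (0.0665) and Psmd13 (0.0744) were lost. Psmd1 in DKO (0.22, adjusted p = 0.0406) was lost without untreated replicate 2 or 3 or oxLDL 60 replicate 1 or 2 (adjusted p = 0.0981 to 0.177). It was also lost without the Xist-positive libraries (0.0534), with no filter on low values (0.0576) and in a fit of these groups alone (0.0717). Psmd14 is the deubiquitinase of the particle, and its change in Apoe-/- was 0.32 ± 0.078 (adjusted p = 0.00445).

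Psmd11, a scaffold subunit of the lid, rose in both genotypes. It read 28.5, 33.1 and 36.0 RPKM in untreated Apoe-/- cells and 45.9, 40.7 and 49.3 RPKM with oxLDL 60 (0.48 ± 0.095, adjusted p = 0.000985). In DKO this was 34.3, 31.9 and 32.9 RPKM and then 49.0, 40.3 and 40.2 RPKM (0.38 ± 0.095, adjusted p = 0.00687). Psmd11 in Apoe-/- was just short of the limit on fold. It was called higher without untreated replicate 2 (0.495) or 3 (0.555), oxLDL 60 replicate 2 (0.554) or the Xist-positive libraries (0.57). With oxLDL 10 it stayed between 30.2 and 35.8 RPKM in all 6 libraries, within the range of the untreated ones.

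The number of members other than the immunoproteasome genes that passed higher in Apoe-/- with oxLDL 60 depended on single libraries. It was 16 of 39 with all libraries, 9 without untreated replicate 1 and 8 without oxLDL 60 replicate 1. It was also 8 when only the compared groups entered the fit. In DKO it was 3, and 8 after rescaling of the libraries, so the count in DKO turned on the scale. In Apoe-/- rescaling gave 15. The share of all genes passing higher was 18.5% in Apoe-/- and 9.06% in DKO with all libraries. For the other fits this share was not counted. The median log2 change over all genes moved as well, in Apoe-/- from 0.061 to 0.017 without untreated replicate 1. In DKO that median went from -0.063 to -0.0026 after rescaling. The genes Psma5, Psmb5, Psmc1, Psmd1, Psmd5, Psmd11 and Psmd14 passed higher in Apoe-/- in all 16 fits tried.

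Another 3 genes encode chaperones that help to assemble the ATPase base and leave it before the particle is complete, and they moved in opposite directions. Psmd10 (gankyrin, on the X chromosome) read 28.7, 36.1 and 35.8 RPKM in untreated Apoe-/- cells, 27.9, 31.8 and 27.1 RPKM with oxLDL 10 and 22.6, 23.3 and 20.2 RPKM with oxLDL 60. DKO libraries held 31.8, 31.9 and 33.2 RPKM when untreated, 24.6, 26.2 and 25.9 RPKM with oxLDL 10 and 21.8, 20.4 and 18.3 RPKM with oxLDL 60. Each library with oxLDL 60 lay below each untreated library. The log2 change at oxLDL 60 was -0.60 ± 0.090 (adjusted p = 6.95e-05) in Apoe-/- and -0.68 ± 0.090 (adjusted p = 1.97e-05) in DKO, and it was -0.58 in Apoe-/- without the Xist-positive libraries.

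Psmd5 went the other way. It read 29.1, 29.4 and 30.9 RPKM in untreated Apoe-/- cells, 38.7, 32.1 and 34.6 RPKM with oxLDL 10 and 49.2, 40.7 and 47.0 RPKM with oxLDL 60, with no overlap between any pair of these groups. Its log2 change of 0.61 ± 0.10 at oxLDL 60 (adjusted p = 0.000232) was the 1 call of a higher member. In DKO it read 33.5, 33.9 and 29.1 RPKM when untreated and 45.5, 47.5 and 39.0 RPKM with oxLDL 60 (0.45 ± 0.10, adjusted p = 0.00353), short of the limit on fold. Psmd9, the third chaperone, rose by 0.23 ± 0.072 in Apoe-/- (adjusted p = 0.0232), and its change in DKO was -0.01. Its pass was lost in 7 alternatives, namely without untreated replicate 1 or 3 or oxLDL 60 replicate 1 or 2 (adjusted p = 0.0553 to 0.0899), without the Xist-positive libraries (0.0524), after rescaling (0.0511) and in a fit of these groups alone (0.075).

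**Figure D3:**
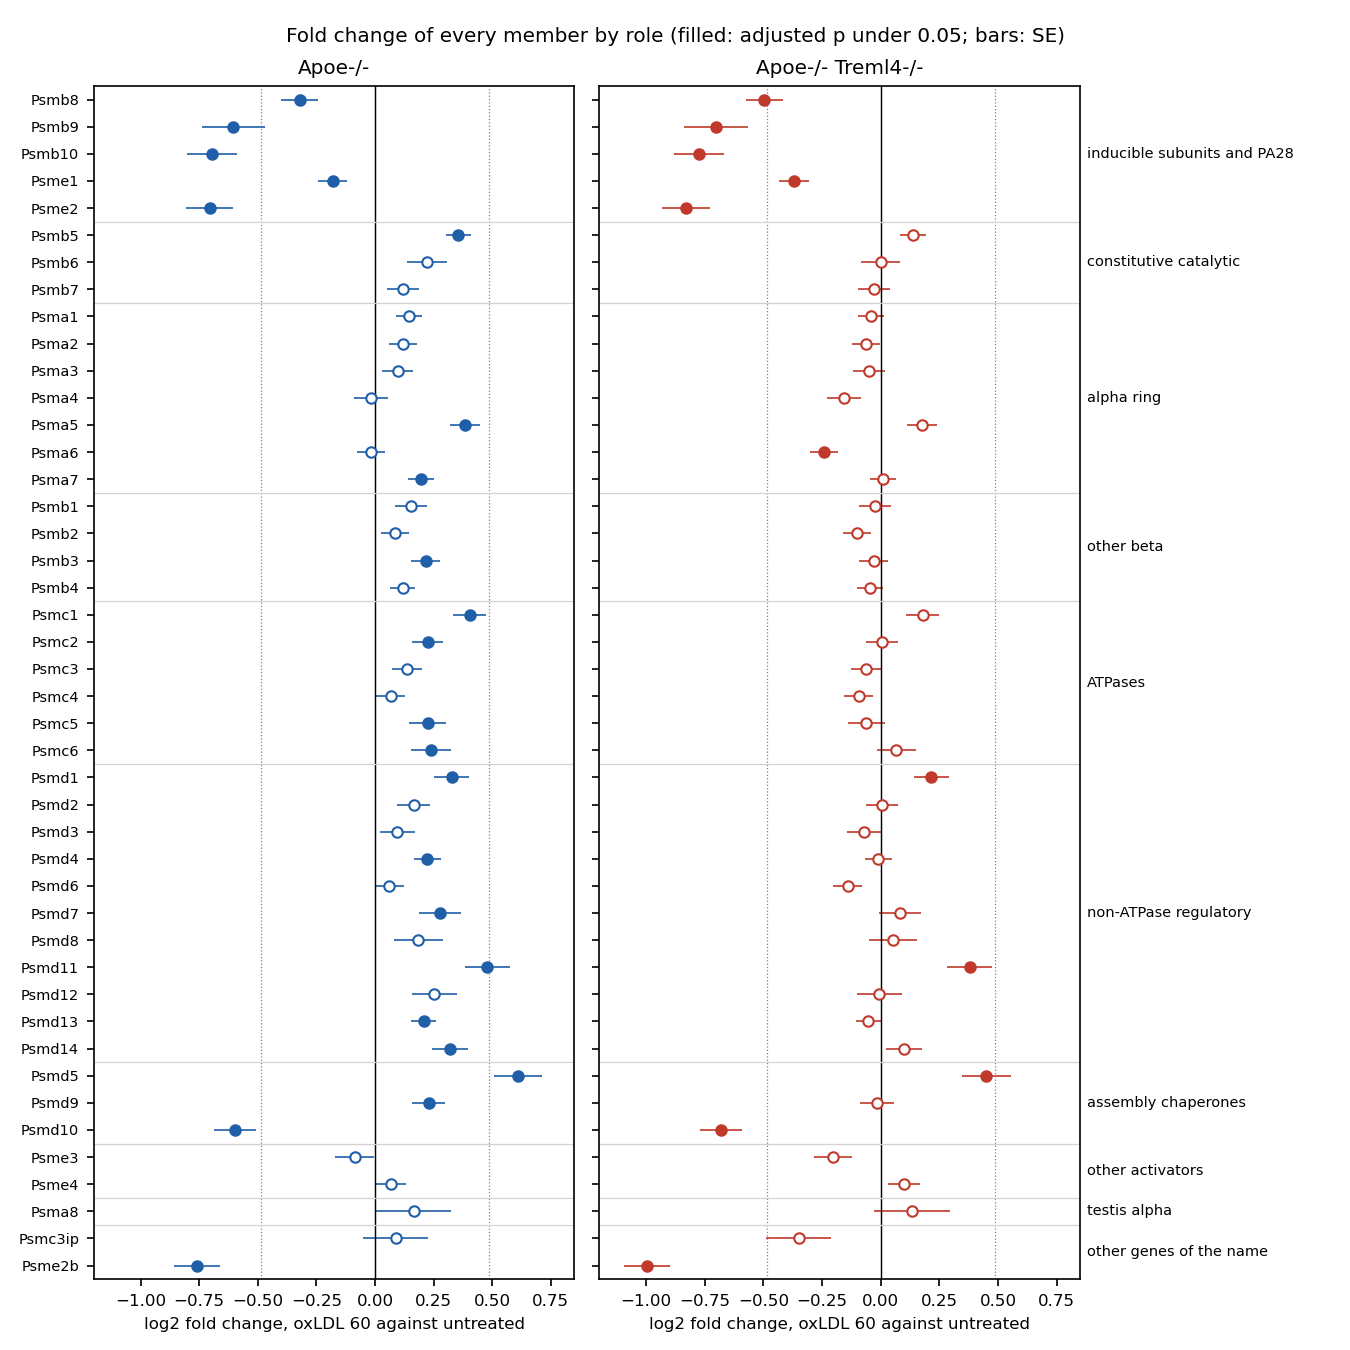
Log2 fold change of RPKM + 0.1 with oxLDL 60 against untreated cells (x axes) for all 44 members (y axis, grouped by role) in Apoe-/- and DKO, with bars for SE, filled points for an adjusted p under 0.05 and dotted lines at 1.4-fold. The 5 genes at the top, Psmd10 and Psme2b lie to the left in both panels. In Apoe-/- the remaining members lie from -0.09 to 0.61, and in DKO from -0.35 (Psmc3ip) to 0.45, with Psma6 past the test at -0.24.

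The other activators did not pass the test. Psme3, the nuclear relative of PA28, changed by -0.09 in Apoe-/- and -0.20 in DKO, and Psme4, which encodes PA200, by 0.07 and 0.10. Psma8 stood at 0.795 to 1.57 RPKM in all libraries, with changes of 0.16 and 0.14. Psmc3ip read 4.88 to 6.10 RPKM in untreated Apoe-/- cells and 6.59 to 9.05 RPKM in untreated DKO cells.

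The lower amount of oxLDL gave few changes that passed. In Apoe-/- 0 of 44 members were called with oxLDL 10, while 0.748% of all genes were called higher and 2.04% lower. At an unadjusted p under 0.05 there were 17 members (22.4% of all genes), and the smallest adjusted p was 0.051 (Psmb5, 0.18 ± 0.054). In DKO 0 members were called (0.569% of all genes higher and 1.69% lower), 5 had an unadjusted p under 0.05 (13.2% of all genes), and Psmd10 passed without the limit on fold (-0.34 ± 0.090, adjusted p = 0.0439), as did 2.41% of all genes in that direction. That pass was lost without any 1 of the 6 libraries compared, at an adjusted p of 0.071 to 0.186.

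The immunoproteasome genes with oxLDL 10 changed by -0.26 to -0.03 in Apoe-/- and by -0.34 to -0.09 in DKO in the fit of all libraries without pairing, and none passed. Without untreated Apoe-/- replicate 1, Psmb10 (-0.40, adjusted p = 0.00871) and Psme2 (-0.40, adjusted p = 0.00908) passed in Apoe-/-. A term for Xist brought Psme2 past the threshold in both genotypes (0.0441 and 0.0135) and Psmb10 in DKO (0.0476). With the replicate number as a block, Psmb10 (adjusted p = 0.049 in Apoe-/- and 0.038 in DKO) and Psme2 (0.039 and 0.011) passed in both genotypes, at the same log2 changes of -0.25, -0.28, -0.26 and -0.34. Psme2 was lower with oxLDL 10 in 6 of 6 pairs matched by genotype and replicate number, and Psmb8, Psmb9, Psmb10 and Psme1 in 5 of 6. The exception was the same pair each time, Apoe-/- replicate 1, whose untreated library had the lowest scaling factor (0.894).

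Between the 2 amounts of oxLDL, Psmb9 alone was called in Apoe-/-, lower with oxLDL 60 (-0.49 ± 0.14, adjusted p = 0.0221), among 3.54% of genes called lower and 2.91% higher. This call was lost without oxLDL 10 replicate 2, oxLDL 60 replicate 1 or oxLDL 60 replicate 3 (adjusted p = 0.0679 to 0.102). In DKO 4 members were called lower with oxLDL 60 than with oxLDL 10 (3.74% of all genes lower and 1.92% higher), namely Psmb10 (-0.49 ± 0.11), Psmb9 (-0.49 ± 0.14), Psme2 (-0.49 ± 0.10) and Psme2b (-0.71 ± 0.099). The first 3 lay close to the limit on fold. Without oxLDL 60 replicate 1 or after rescaling 1 call remained (Psme2b), where Psmb9 also missed the adjusted p (0.0586 and 0.0615), and 2 (Psme2b and Psmc3ip) without oxLDL 10 replicate 3.

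To ask whether loss of Treml4 bears on these genes, DKO was set against Apoe-/- at each treatment. The count of members called was 0 when untreated, with oxLDL 10 and with oxLDL 60, where 0.21%, 0.0857% and 0.125% of all genes were called. At an unadjusted p under 0.05 the limma fits gave 7, 1 and 3 members, beside 17.3%, 9.75% and 7.88% of all genes. When untreated, the fit with a term for Xist-positive libraries, the fit without those libraries and the fit without untreated DKO replicate 3 each called 1 member, Psmc3ip, higher in DKO (0.52, 0.57 and 0.66). For the immunoproteasome genes with oxLDL 60 the difference, DKO minus Apoe-/-, ranged from -0.11 (Psme1, 95% interval -0.23 to 0.02) to -0.04 (Psmb9, -0.31 to 0.23).

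The test of whether the effect of oxLDL differed between genotypes called 0 members at either amount. It called 0% of all genes with oxLDL 10 and 0.0156% with oxLDL 60. At an unadjusted p under 0.05 the limma fit gave 1 member with oxLDL 10 (1.92% of all genes) and 18 with oxLDL 60 (9.78% of all genes), where the smallest adjusted p was 0.507. The median of this difference over the members was -0.18, beside -0.11 over all genes tested, and after rescaling of the libraries it was -0.06 beside 0.01. Constitutive subunits that passed higher in Apoe-/- and not in DKO are therefore not shown to differ between the genotypes.

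Genes of the same pathway outside the subunit families were taken from lists of known roles. These lists were set with earlier results of these data known, so their counts are descriptive and not an independent test. Alternatives to the main fit are reported for members only, not for these genes. Of 6 interferon regulators of the immunoproteasome, 5 were called lower with oxLDL 60 in each genotype, beside 6.78% (Apoe-/-) and 7.31% (DKO) of all genes. Irf1, a transcription factor induced by interferons, changed by -1.87 ± 0.22 in Apoe-/- and -1.71 ± 0.22 in DKO, and Nlrc5, the activator of class I genes, by -0.63 ± 0.095 and -0.67 ± 0.095. Irf8, at -0.08 in Apoe-/- and -0.20 in DKO (adjusted p = 0.0446), was the 1 that was not called. The others were the receptor chains Ifngr1 and Ifngr2, at -0.51 to -0.63 over both genotypes, and the feedback inhibitor Socs1 (-0.98, adjusted p = 0.00343, in Apoe-/- and adjusted p = 0.000769 in DKO). Socs1 was low, at 0.632 to 1.17 RPKM untreated and 0.248 to 0.594 RPKM with oxLDL 60 over both genotypes.

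With oxLDL 10 Irf1 was called lower in Apoe-/- (-0.94, where the groups overlapped) but not in DKO (-0.78, adjusted p = 0.0532), and Socs1 in DKO (-1.09) but not in Apoe-/- (-0.63, adjusted p = 0.114). Whether these differed between the genotypes was tested for each gene, and 0 of the 6 passed. Of 10 genes for loading of peptides on class I molecules, Tap1 fell most with oxLDL 60 (-0.94 ± 0.14 in Apoe-/- and -0.98 ± 0.14 in DKO). Tap2 and Tapbp passed in both genotypes too, and B2m, H2-K1, H2-D1, Erap1, Calr, Canx and Pdia3 did not pass in either. Of all genes, 11.7% passed lower with oxLDL 60 in Apoe-/- and 16.8% in DKO. Tap1 and Tap2 stand beside Psmb8 and Psmb9 on chromosome 17.

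**Figure D4:**
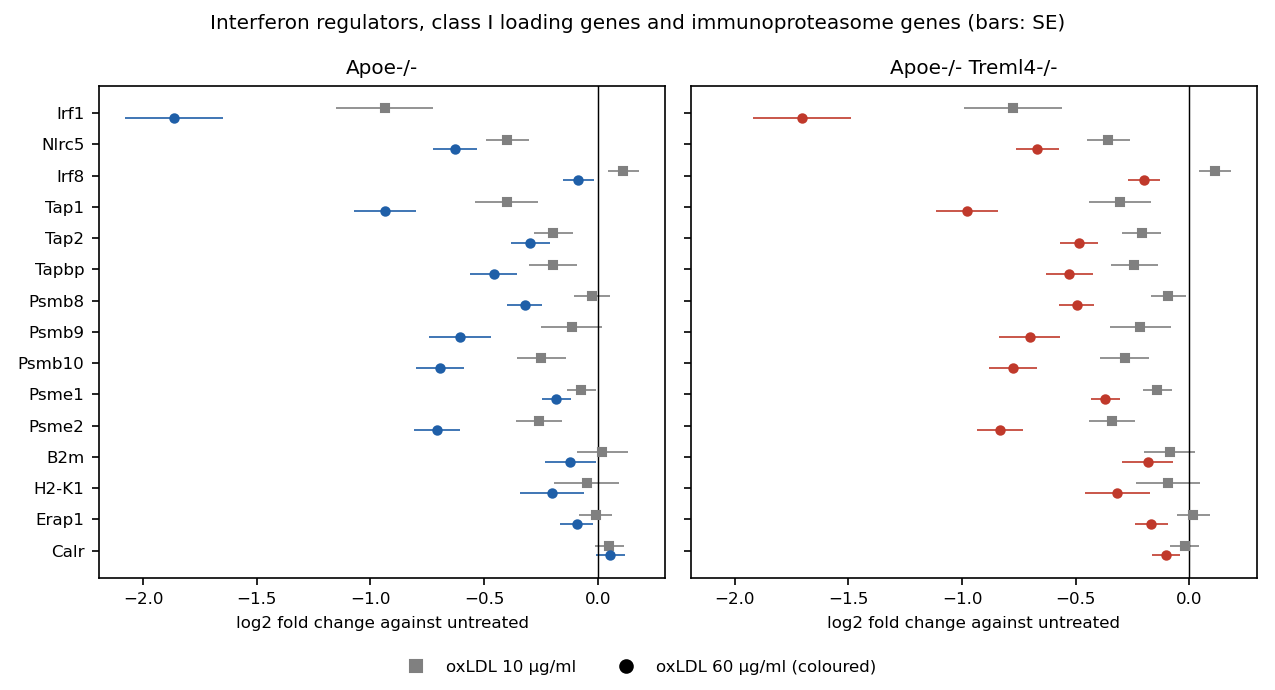
Log2 fold change of RPKM + 0.1 against untreated cells (x axes) with oxLDL 10 (grey squares) and oxLDL 60 (coloured circles) in Apoe-/- and DKO, bars SE, for interferon regulators, class I loading genes and the 5 immunoproteasome genes (y axis). Irf1 lies farthest left, at -1.87 and -1.71 with oxLDL 60, and Calr lies between -0.10 and 0.06.

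Of 17 assembly factors and regulators outside the subunit families, 4 passed higher in Apoe-/- with oxLDL 60, near the 18.5% of all genes, among them Pomp, the maturation chaperone of the core (0.20 ± 0.065, adjusted p = 0.0274), and Zfand5, an activator (0.31). In DKO Zfand5 rose (0.28) and Psmg1 and Psmg3, chaperones of the alpha ring, fell by 0.22 and 0.26 on the log2 scale (9.06% of all genes passed higher and 16.8% lower). Nfe2l1, the factor that drives proteasome genes when the proteasome is inhibited, changed by -0.02 in Apoe-/- and -0.07 in DKO and did not pass. Of 14 ubiquitin and shuttle genes, 1 was called in each genotype, near the 7.13% and 4.87% of all genes called higher. This was Zfand2a, a heat-shock partner of the proteasome, higher by 1.16 ± 0.11 and 0.91 ± 0.11.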

How the data were processed

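The submitters' processing notes name STAR and mm10, and the study's workflow also lists Subread. The authors deposited 1 table of RPKM for 18 libraries and 18668 symbols, and the counting settings, strand included, are not given in the sources used here. The labels name more than 1 sequencing platform, and a treatment label mentions LPS. Neither could be assigned to libraries. RPKM scale each library to its total, so reads of a few abundant RNAs lower all other values.

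Values were analysed as log2(RPKM + 0.1), which understates changes of low genes. Rows that reached 0.1 RPKM in fewer than 3 libraries were dropped, leaving 12838. One model with 6 group means was fitted with limma 3.58.1 in R 4.3.3 (lmFit, eBayes with trend), adjusted by Benjamini-Hochberg within each comparison. The study's own test needs counts, so limma replaced it. Ratios were tested by exact permutation of labels within genotype. Intervals are 95%, as 1.96 SE. The members and lists were chosen with earlier results of these data known. The genes named in full were the 5 immunoproteasome genes, Psmb5, Psmb6, Psmb7 and, per comparison, up to 3 called members in each direction without overlap between groups. Psmd11, Psmc1 and other members past the adjusted p were added after their values were seen.

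Depth was recovered with GENCODE M21 lengths, which 97.3% of symbols had, from the RPKM value of 1 read. Under these lengths 34.6% to 38.7% of low values lay within 0.05 of a whole read (10% by chance), so the depth is approximate, and it covers counting error only. All 18 pairs of libraries with the same genotype and replicate number correlated positively in their deviations from group means (0.18 to 0.69). The 36 pairs of the same genotype with other numbers had a median of -0.35 but ranged from -0.61 to 0.29, so the ranges overlapped. Deviations within a group cancel out, so positive values for equal numbers force lower ones for the others. Xist-positive libraries of the different genotypes, which carry different numbers, also correlated (0.40 to 0.48). Numbers were taken to mark an animal, which the sample titles do not state, and a replicate block was tried. Other alternatives were pseudocounts of 1 and 0.01, other filters, rescaling by the median ratio, a fit of the compared groups alone, no limit on fold, a term for or removal of Xist-positive libraries and leaving out each library. The scripts were tested on simulated data. Python 3.11.15, numpy 2.4.6, pandas 2.3.3, scipy 1.17.1, biopython 1.88 and matplotlib 3.10.9 served for the rest. Some genes of the marker and pathway lists are not reported here.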

Additional observations from a re-analysis of the deposited data

How the results depend on the processing

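Members called with oxLDL 60 against untreated numbered 6 in each genotype and stayed at 5 to 7 under every alternative that kept the limit on fold. Without that limit they were 23 in Apoe-/- and 11 in DKO, and 12, 9 and 1 for oxLDL 60 against oxLDL 10 in Apoe-/-, the same in DKO, and oxLDL 10 against untreated in DKO. With the limit, the members behind the counts for oxLDL 60 against untreated changed as well. Among them were Psmd11 in Apoe-/- and Psmb8 and Psmd5 in DKO. For oxLDL 60 against oxLDL 10 in Apoe-/- (1 call) the count was 0 with a pseudocount of 1 or no filter, and 0 to 3 without single libraries. In DKO (4 calls) it was 2 with a pseudocount of 1, 1 after rescaling, and 1 to 4 without single libraries. DKO against Apoe-/- untreated gave 1 call with a term for Xist or without Xist-positive libraries, and 0 to 1 without single libraries. Leaving out single libraries gave 6 to 7 members with oxLDL 60 in Apoe-/-, 5 to 7 in DKO, and 0 in the comparisons not named here. The replicate block changed no count of members called.

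The ratio changes kept their sign everywhere. In single genotypes, where no p can be under 0.1, they were -0.36 (Apoe-/-) and -0.31 (DKO) for Psmb10 to Psmb7 with oxLDL 10 and -0.81 and -0.75 with oxLDL 60, -0.21 and -0.14 for Psmb8 to Psmb5 with oxLDL 10 and -0.68 and -0.63 with oxLDL 60, and -0.83 and -0.70 for Psmb9 to Psmb6 with oxLDL 60. Without Xist-positive libraries, where the design allows no adjusted p under the threshold (0.0667), these were -0.33, -0.77, -0.18, -0.67 and -0.73. Psmb9 to Psmb6 with oxLDL 10 passed with the replicate block (-0.20) and spanned -0.25 to -0.13 without single libraries. The sign of small values turned for Psmb6 in DKO with oxLDL 60 (0.065 rescaled, -0.067 to 0.047 without single libraries), Psmb7 in DKO with oxLDL 60 (0.036 rescaled, 0.0023 without Xist-positive libraries, -0.062 to 0.017 without single libraries) and Psmb8 in Apoe-/- with oxLDL 10 (-0.12 to 0.022 without single libraries). The causes were not tested. Of 825 values of named members under alternatives, 727 kept direction and side of the threshold, 74 no longer passed, 15 newly passed and 9 turned sign. Depth limits Psma8 most, the member with the fewest reads.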
